A study of Mus musculus with 9 samples.

Results

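The genes described here are 10 ion and water transporters of the colonocyte, the absorptive epithelial cell of the large intestine: Slc26a3, Slc26a2, Slc9a2, Slc9a3, Scnn1a, Scnn1b, Scnn1g, Atp12a, Cftr and Aqp8. They were taken as a list of symbols, chosen with earlier results of these data known. Every array probe whose RefSeq accession mapped to one of them was used, which gave 12 of the 41174 probes. Of these 12 probes, 11 passed the filter on low signal, and 1 probe per gene left all 10 genes among the 21964 features tested, 15346 of which carry a gene symbol. Cftr and Scnn1a each had a second probe, described below.

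The study asked which genes differ in the colon between mice given butyrate and mice given only a carcinogen. Total RNA of normal colonic mucosa from ICR mice was labelled with Cy3 and measured on 9 Agilent arrays. All mice, the comparison group included, received the colon carcinogen 1,2-dimethylhydrazine (DMH), injected under the skin at 20 mg/kg each week over 20 weeks. Mice behind the 3 DMH arrays had plain drinking water and a normal diet, and the 6 butyrate arrays come from mice whose drinking water held 1.5% butyrate. Titles, descriptions and source names divide the butyrate arrays into 3 from mice without tumors (tumor-free) and 3 from mice with tumors (tumor-bearing). A separate tumor status field contradicts this on each of the 6 butyrate arrays and reads "control" on the DMH arrays, so if that field were right, every direction between the butyrate groups below would turn and the values of these groups against DMH would change places. The age, sex and tumor burden of the mice are not in the sources used here, and neither is whether each array is a separate animal, so p-values measure only the spread between these samples.

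The surface of the colon takes up salt and water and secretes bicarbonate. In the apical membrane, Na+/H+ exchangers work beside Cl-/HCO3- exchangers so that sodium chloride enters the cell, and in the distal colon the epithelial sodium channel ENaC takes up sodium under control of aldosterone. The Na+/K+ pump and potassium channels of the basolateral membrane keep these gradients, while CFTR lets chloride out and aquaporins pass water. Butyrate, a short-chain fatty acid made by gut bacteria, is a main fuel of colonocytes.

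Levels are given as log2 of the processed signal minus the 75th percentile of the same array, so that 0 is the signal below which 75% of its probes lie. A level compares 1 probe between arrays, never a probe with another. A gene was called where its adjusted p (limma, Benjamini-Hochberg over all features) was under 0.05. The 75th percentile of the signal ranged from 188 to 880 between arrays and was lowest on array 1 of each butyrate group (188 tumor-bearing, 281 tumor-free). The 3 tumor-free arrays and tumor-bearing array 1 shared a slide, tumor-bearing arrays 2 and 3 shared another, and the DMH arrays lay on other slides that were scanned on another day. Slide, scan and treatment therefore cannot be told apart in any comparison with DMH. The median SD of a feature was 0.27 in the tumor-free, 0.38 in the tumor-bearing and 0.12 in the DMH arrays. All 10 colonic epithelium markers (among them Epcam, Vil1, Cdx2 and Krt20) were well above background on every array. Tissue RNA was measured whole, so fewer cells of a type and less RNA per cell cannot be told apart.

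Slc26a3 (DRA), the main apical chloride-bicarbonate exchanger of the colon, whose loss causes chloride diarrhea, was higher in the tumor-free butyrate arrays than in DMH. Its level was 3.51, 3.88 and 4.24 on tumor-free arrays 1, 2 and 3, 2.82, 3.46 and 3.47 on the tumor-bearing arrays, and 2.64, 2.78 and 2.64 on the DMH arrays. All 6 butyrate arrays lay above all 3 DMH arrays, and all tumor-free arrays lay above all tumor-bearing arrays. The tumor-free arrays exceeded DMH by 1.19 ± 0.25 (log2, SE), a 2.29-fold difference with an adjusted p of 0.0106 (limma). The excess of the tumor-bearing arrays over DMH, 0.56 ± 0.25, did not pass (adjusted p = 0.166), and neither did the difference between the butyrate groups of 0.63 ± 0.25 (adjusted p = 0.114). Over all 6 butyrate arrays Slc26a3 was 0.88 ± 0.28 above DMH, with an adjusted p of 0.0724.

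Slc26a2, an apical anion exchanger that carries sulfate for the sulfation of mucus and matrix, separated the tumor-free arrays from all others. Its level was 3.98, 3.78 and 3.45 on the tumor-free arrays, 2.23, 2.19 and 2.33 on the tumor-bearing arrays, and 2.62, 2.48 and 2.36 on the DMH arrays. The 3 groups did not overlap, and the tumor-bearing arrays lay lowest. Slc26a2 was 1.25 ± 0.18 higher in the tumor-free arrays than in DMH (2.38-fold, adjusted p = 0.00307, limma) and 1.48 ± 0.18 higher than in the tumor-bearing arrays (2.80-fold, adjusted p = 0.0114). The tumor-bearing arrays differed from DMH by -0.24 ± 0.18, which did not pass (adjusted p = 0.391). On the slide that held all tumor-free arrays and tumor-bearing array 1, the tumor-free arrays exceeded that array by 1.22 to 1.75.

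Slc9a2 (NHE2), an apical Na+/H+ exchanger of colonocytes, was higher in the tumor-free than in the tumor-bearing arrays, with DMH between them. Its level was 0.53, -0.17 and -0.15 on the tumor-free arrays, -1.96, -1.60 and -1.29 on the tumor-bearing arrays, and -0.79, -0.81 and -0.81 on the DMH arrays. No group overlapped another. The difference between the butyrate groups was 1.69 ± 0.24 (3.22-fold, adjusted p = 0.0125, limma), and within the shared slide it was 1.79 to 2.48. Against DMH the tumor-free arrays were 0.87 ± 0.24 higher (adjusted p = 0.0282), and the tumor-bearing arrays differed by -0.81 ± 0.24 without passing (adjusted p = 0.0759). The call against DMH was lost, with adjusted p from 0.0675 to 0.0853, when tumor-free array 1 or any 1 of the 3 DMH arrays was left out.

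Slc9a3 (NHE3), the apical Na+/H+ exchanger that carries much of sodium absorption, passed no test. Its level was -3.95, -4.12 and -4.37 on the tumor-free arrays, -5.97, -5.12 and -3.30 on the tumor-bearing arrays, and -4.47, -5.05 and -4.96 on the DMH arrays. The tumor-free arrays lay just above all DMH arrays, the tumor-bearing arrays spanned both other groups, and tumor-bearing array 1 was not well above background. The tumor-free difference from DMH was 0.68 ± 0.58 (adjusted p = 0.385, limma), and that of the tumor-bearing arrays was 0.03 ± 0.58 (adjusted p = 0.977). Tumor-free arrays differed from tumor-bearing ones by 0.65 ± 0.58 (adjusted p = 0.441).

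ENaC is built of alpha, beta and gamma subunits, coded by Scnn1a, Scnn1b and Scnn1g, and the alpha subunit is needed for the pore. The probe used for Scnn1a gave 3.32, 3.79 and 3.99 on the tumor-free arrays, 2.88, 2.70 and 2.65 on the tumor-bearing arrays, and 2.85, 2.73 and 2.61 on the DMH arrays. The tumor-free arrays lay above all others, and the tumor-bearing and DMH arrays covered nearly the same range. The tumor-free excess was 0.97 ± 0.20 over DMH (1.96-fold, adjusted p = 0.0102, limma) and 0.96 ± 0.20 over the tumor-bearing arrays (1.94-fold, adjusted p = 0.0236). The second call was lost when any 1 of 5 arrays was left out (tumor-free 2 or 3, tumor-bearing 3, DMH 2 or 3), with adjusted p from 0.0501 to 0.0841. A second Scnn1a probe, well above background on 6 arrays, ran the other way: -7.37, -5.52 and -5.87 tumor-free, -6.58, -4.97 and -4.12 tumor-bearing, and -4.44, -4.42 and -4.31 in DMH. On that probe the tumor-free difference from DMH was -1.86 ± 0.65 (adjusted p = 0.0589), so the probes of Scnn1a disagree in direction.

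Scnn1b and Scnn1g, which are neighbouring protein-coding genes on mouse chromosome 7, did not follow Scnn1a. The level of Scnn1b was -3.34, -1.71 and -3.10 on the tumor-free arrays, -4.27, -2.37 and -3.09 on the tumor-bearing arrays, and -2.41, -2.35 and -2.55 on the DMH arrays. Scnn1g gave -7.13, -2.21 and -5.52, then -6.04, -3.15 and -3.58, and -3.63, -3.61 and -3.82 in the same order. Both genes were low on tumor-bearing array 1, Scnn1g was lowest on tumor-free array 1, and on tumor-free array 2 both lay above every DMH array, so the butyrate groups overlapped DMH. For Scnn1g, tumor-free arrays 1 and 3 and tumor-bearing array 1 were not well above background. Against DMH, Scnn1b differed by -0.28 ± 0.54 in the tumor-free arrays (adjusted p = 0.709, limma) and by -0.81 ± 0.54 in the tumor-bearing arrays (adjusted p = 0.334). Scnn1g differed by -1.27 ± 1.18 (adjusted p = 0.432) and -0.57 ± 1.18 (adjusted p = 0.770). Over the 9 arrays, which share slides and differ in signal, Scnn1b and Scnn1g had a Pearson correlation of 0.82, against 0.09 and -0.20 for Scnn1a with each.

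Atp12a, the catalytic subunit of the colonic H+/K+ pump that recovers potassium, also varied widely within the butyrate groups. Its level was -1.45, 2.78 and 2.77 on the tumor-free arrays, 0.14, 2.13 and 1.57 on the tumor-bearing arrays, and 1.45, 1.45 and 1.38 on the DMH arrays. The other butyrate arrays lay above every DMH array, and array 1 of each butyrate group lay far below. Over all arrays the differences from DMH were near 0, at -0.06 ± 1.06 tumor-free (adjusted p = 0.970, limma) and -0.15 ± 1.06 tumor-bearing (adjusted p = 0.941). An alternative added after the data were seen left out array 1 of both butyrate groups. There Atp12a was 1.35 higher in the tumor-free arrays than in DMH and 0.92 higher than in the tumor-bearing arrays. The arrays left out are those on which Atp12a was low, so these values are no test of a difference.

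Array 1 of each butyrate group also stood apart in several, but not all, of the posterior Hox genes, which mark the distal end of the gut. Hoxb13 gave -1.98, 2.48 and 2.50 on the tumor-free arrays, 0.28, 3.15 and 2.63 on the tumor-bearing arrays, and 3.43, 3.36 and 3.37 on the DMH arrays. Hoxd13 gave -4.19, 3.02 and 2.49, then 1.13, 3.42 and 2.75, and 1.54, 2.09 and 1.83. Both were lowest on tumor-free array 1 and next lowest on tumor-bearing array 1. Hoxa13, Hoxd10 and Hoxd11 were also lowest on these 2 arrays, but Hoxa11 and Hoxd12 were not. Hoxa11 gave -1.06, -1.19 and -1.96 on the tumor-free arrays and -1.02 on tumor-bearing array 1. Hoxd12 was lowest on DMH array 3 (-7.34). The level summed over the 7 posterior Hox genes, in units of the 75th percentile, weighs bright genes most. It was 1.65 on tumor-free array 1, 4.86 on tumor-bearing array 1 and 13.1 to 23.5 on the other 7. Dleu2, Ptpru, Foxq1, Hoxa13 and Bco2 were the named genes whose pattern was most like that of Scnn1g (Pearson r 0.91 to 0.93 over 9 arrays), and Casp14, Unc119, Itih2, Lsr and Nrap were most like Atp12a (r 0.96 to 0.97). For Slc9a3 these were Numb, Setmar, Sox18, Adra2c and 2610306M01Rik (r 0.88 to 0.91). All were picked as the highest among the 15346 named features over 9 arrays. Their correlations therefore describe patterns and are no test of a link, also for Hoxa13. The Scnn1g probe was well above background on 6 of the 9 arrays. Array 1 of each butyrate group also had the lowest 75th percentile. The part of signal or of position along the colon in the values of Scnn1b, Scnn1g and Atp12a was not tested.

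**Figure D1:**
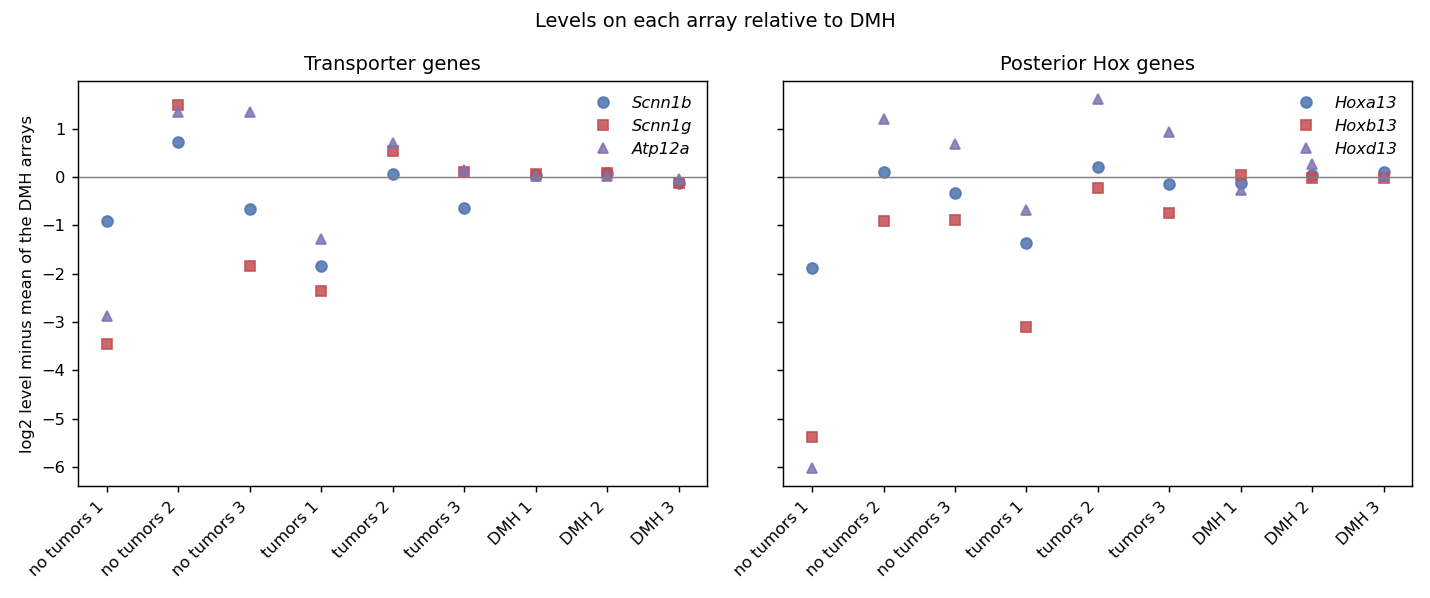
Level of 3 transporter genes (left) and 3 posterior Hox genes (right) on each array, as log2 difference from the mean of the 3 DMH arrays; each point is 1 array. Scnn1g, Atp12a, Hoxa13 and Hoxb13 are lowest on array 1 of the butyrate groups, whereas the 3 DMH points of each gene lie near 0.

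Cftr, the apical chloride channel of crypt secretion, passed no test on its measured probe. Its level was -0.13, 0.51 and 1.11 on the tumor-free arrays, 0.27, 0.38 and -0.48 on the tumor-bearing arrays, and 0.80, 0.59 and 0.64 on the DMH arrays. Every tumor-bearing array lay below every DMH array, whereas the tumor-free arrays lay on both sides of DMH. The difference from DMH was -0.62 ± 0.34 in the tumor-bearing arrays (adjusted p = 0.247, limma) and -0.18 ± 0.34 in the tumor-free arrays (adjusted p = 0.702). The second Cftr probe was well above background on 0 of 9 arrays.

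Aqp8, a water channel of the surface epithelium of the colon, was higher in the tumor-free arrays than in DMH. Its level was 6.96, 6.86 and 6.69 on the tumor-free arrays, 6.52, 5.59 and 6.06 on the tumor-bearing arrays, and 6.05, 5.64 and 5.49 on the DMH arrays. The tumor-free arrays lay above all others, and the tumor-bearing arrays overlapped DMH. The tumor-free excess over DMH was 1.11 ± 0.26 (2.16-fold, adjusted p = 0.0157, limma), and this call was lost when DMH array 2 or 3 was left out (adjusted p = 0.0603 and 0.0641). Before scaling, the signal of Aqp8 was 35098 to 51590 on the tumor-free and 37065 to 49030 on the DMH arrays. The unscaled difference was 0.03 ± 0.64 (adjusted p = 0.973, limma), so the excess over DMH depends on scaling between arrays. The excess over the tumor-bearing arrays, 0.78 ± 0.26, did not pass (adjusted p = 0.0755), and within the shared slide it was 0.17 to 0.44.

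**Figure D2:**
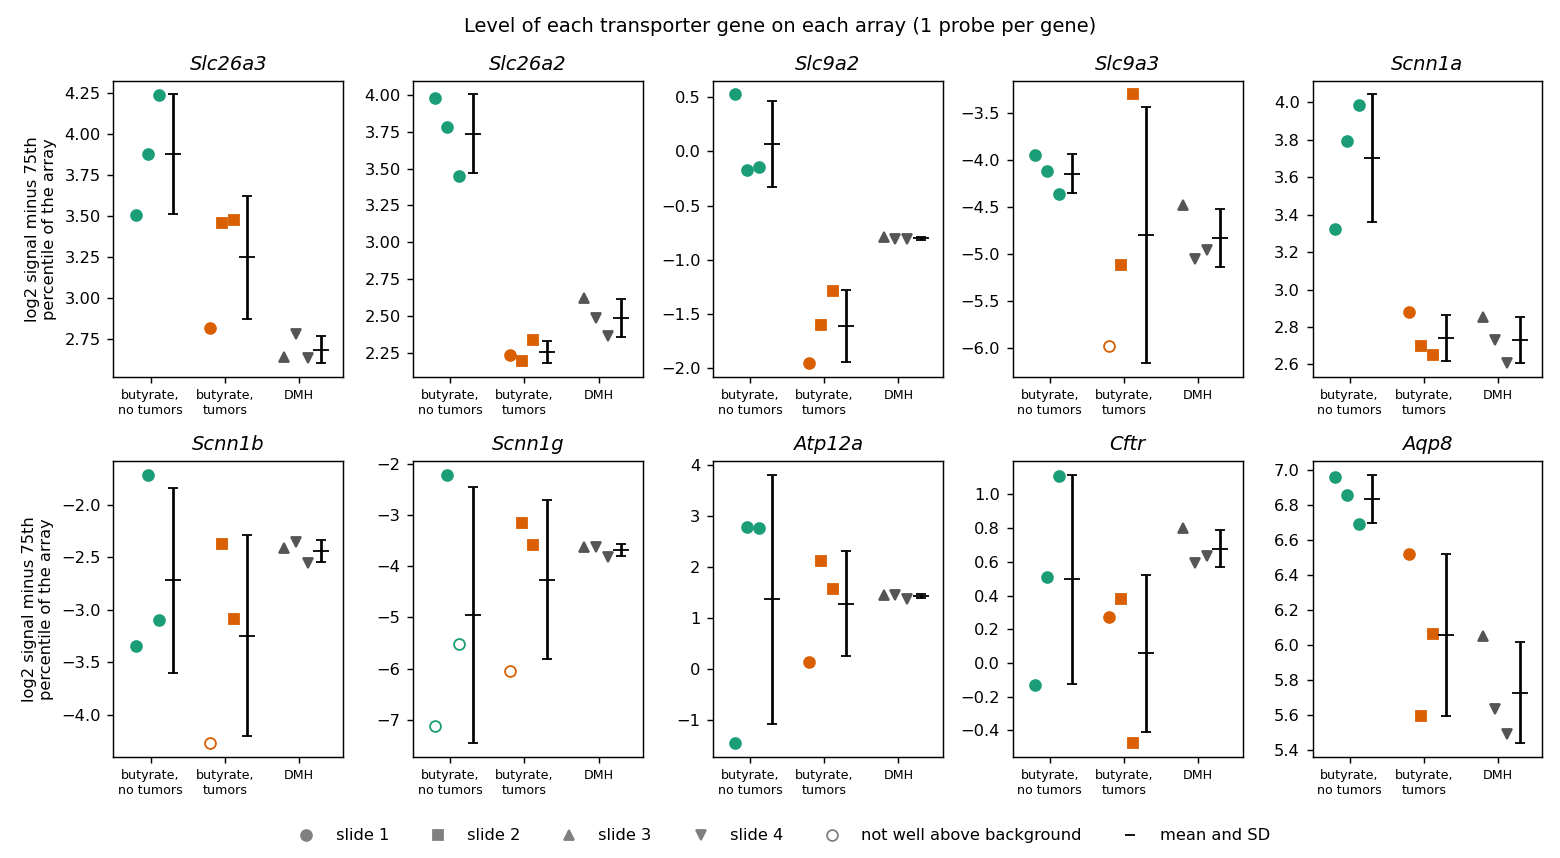
Level of each of the 10 genes on each array (log2 signal minus the 75th percentile of the array), by group; marker shape is the slide, open markers are not well above background, and the bar is the mean with SD over 3 arrays. The tumor-free arrays lie above all DMH arrays for Slc26a3, Slc26a2, Slc9a2, Slc9a3, Scnn1a and Aqp8, and array 1 of the butyrate groups is low for Scnn1g and Atp12a.

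RefSeq promoter sequences were matched for 6 of the 10 genes (Slc26a3, Slc9a3, Scnn1b, Scnn1g, Cftr and Aqp8), and 4 are printed because their genes either rose in the tumor-free arrays (Slc26a3, Aqp8) or lie side by side in the genome and varied together between arrays (Scnn1g, Scnn1b). Each is the 250 bases before the RefSeq start on the plus strand of GRCm38.p6, written 5′ to 3′, with motif letters in capitals. They lie at chr12:31437969-31438218 (Slc26a3), chr7:123462044-123462293 (Aqp8), chr7:121734229-121734478 (Scnn1g) and chr7:121864788-121865037 (Scnn1b).
Slc26a3: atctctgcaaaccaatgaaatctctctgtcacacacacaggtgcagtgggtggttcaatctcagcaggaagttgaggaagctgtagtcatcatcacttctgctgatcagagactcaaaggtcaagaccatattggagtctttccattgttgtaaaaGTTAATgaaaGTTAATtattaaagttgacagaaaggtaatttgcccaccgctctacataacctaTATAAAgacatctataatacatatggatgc
Aqp8: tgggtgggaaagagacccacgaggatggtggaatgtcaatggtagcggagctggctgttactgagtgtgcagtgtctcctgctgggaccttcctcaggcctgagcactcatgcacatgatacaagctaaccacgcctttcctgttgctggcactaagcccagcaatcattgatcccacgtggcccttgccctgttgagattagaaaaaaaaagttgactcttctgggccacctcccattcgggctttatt
Scnn1g: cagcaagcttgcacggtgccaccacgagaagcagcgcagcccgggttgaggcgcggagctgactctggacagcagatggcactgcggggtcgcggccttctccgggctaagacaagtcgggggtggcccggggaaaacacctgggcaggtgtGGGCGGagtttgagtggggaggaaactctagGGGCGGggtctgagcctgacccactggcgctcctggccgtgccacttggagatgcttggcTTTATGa
Scnn1b: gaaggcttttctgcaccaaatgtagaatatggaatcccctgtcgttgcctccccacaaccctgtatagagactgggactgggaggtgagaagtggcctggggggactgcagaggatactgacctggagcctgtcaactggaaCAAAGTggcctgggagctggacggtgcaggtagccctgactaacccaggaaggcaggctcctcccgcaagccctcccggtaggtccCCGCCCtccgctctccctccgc

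Motifs of 6 letters were searched on both strands, and a match was allowed to overlap that of another motif. GTTAAT is a half-site of the HNF1 factors of gut epithelium, and CAAAGT is the core that HNF4 factors recognise. TTTATG stands for the CDX factors that give the intestine its identity. The letters AGAACA are the half-site shared by the mineralocorticoid and glucocorticoid receptors. General elements were included, namely TATAAA for the TATA box and GGGCGG for the GC box. The Slc26a3 window held 2 GTTAAT matches and 1 TATAAA match whose first base lay 30 bases before the start, in a sequence of 38.8% GC. Of all 32851 RefSeq windows of 250 bases, 6.43% held GTTAAT and 12.4% held TATAAA. The Aqp8 window held none of the 6 motifs. The Scnn1g window held 2 GGGCGG matches and 1 TTTATG match whose first base lay 7 bases before the start, and the Scnn1b window held 1 GGGCGG and 1 CAAAGT match, at 65.2% and 60.8% GC. GGGCGG occurred in 32.7%, CAAAGT in 12.6%, TTTATG in 10.8% and AGAACA in 16.1% of all windows. These are matches of letters and no measure of binding.

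Counted together, 5 of the 10 genes were called in the tumor-free arrays against DMH (Slc26a3, Slc26a2, Slc9a2, Scnn1a and Aqp8), all higher, where 30.5% of all features were called and 16.6% were called higher. The groups did not overlap for 6 of the 10 genes, all higher, against 60% of all features, 32.8% higher. The median change of the 10 genes was 0.78, against 0.08 over all features. The list was chosen with earlier results of these data known. These counts, and those of the comparisons and partner lists below, are therefore no test of a list against all features. With the probes of a gene averaged, 4 of the 10 genes and 6160 of all features were called, and Scnn1a was -0.44. On unscaled signals the median of all features moved by -1.08, and 0 of the 10 genes and 1550 of all features were called. Slc26a3, Slc26a2 and Aqp8 then differed from DMH by 0.11, 0.17 and 0.03. Slc9a2 and Scnn1a lay below DMH, and relative to the unscaled median of all features they were 0.80 and 0.90 higher. With slide as a random block, Slc26a2 was the 1 gene called (adjusted p = 0.0359, limma), and Slc26a3, Scnn1a, Slc9a2 and Aqp8 had adjusted p from 0.0573 to 0.142. Without array 1 of both butyrate groups, 6 were called, Atp12a with the 5. The arrays left out were those on which Atp12a was low, so its call there follows from that choice. Over all 21964 features, 1006 were called with slide as a random block and 9813 without array 1 of both butyrate groups.

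Between the butyrate groups, 3 of the 10 genes were called (Slc26a2, Slc9a2 and Scnn1a), all higher in the tumor-free arrays, where 13.5% of all features were called and 6.56% were called higher. The groups did not overlap for 5 genes, these 3 with Slc26a3 and Aqp8, all higher, against 33.4% of all features, 16.6% higher. The difference was positive for 9 of the 10 genes, Scnn1g being the exception, but Atp12a and Cftr turned negative without scaling, Atp12a also with quantile scaling, and Scnn1g turned positive with normexp. A fit to the 2 butyrate groups alone called 0 of the 10 genes and 0 of all features, with adjusted p of 0.0677 for Slc26a2, 0.0702 for Slc9a2 and 0.0901 for Scnn1a. With slide as a fixed block these were 0.0596, 0.0551 and 0.196, and 0 of the 10 genes were called, beside 357 of all features. Without array 1 of both groups, 6 were called, all higher, while 7740 of all 21964 features were called, 3588 of them higher. Calls over all features were 2976 in the main fit. Atp12a is among the 6, and it was low on the arrays left out.

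In the tumor-bearing arrays against DMH, 0 of the 10 genes were called with limma, 2 had an unadjusted p under 0.05 (Slc9a2 and Slc26a3), and 5.7% of all features were called. The groups did not overlap for 4 genes: Slc26a3 was higher, and Slc26a2, Slc9a2 and Cftr were lower, against 42.6% of all features (23.1% higher, 19.5% lower). Over all 6 butyrate arrays against DMH, again 0 of the 10 genes were called, 2 had an unadjusted p under 0.05 (Slc26a3 and Aqp8), and 9.2% of all features were called. Slc26a3 alone had groups that did not overlap, against 26.3% of all features. Fitted with 3 groups in place of 2, this comparison called Slc26a3 (adjusted p = 0.0243), Slc26a2 (0.0452) and Aqp8 (0.0491). Calls over all 21964 features rose as well, from 2020 with 2 groups to 5052 with 3. All 3 comparisons with DMH use the same 3 DMH arrays.

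**Figure D3:**
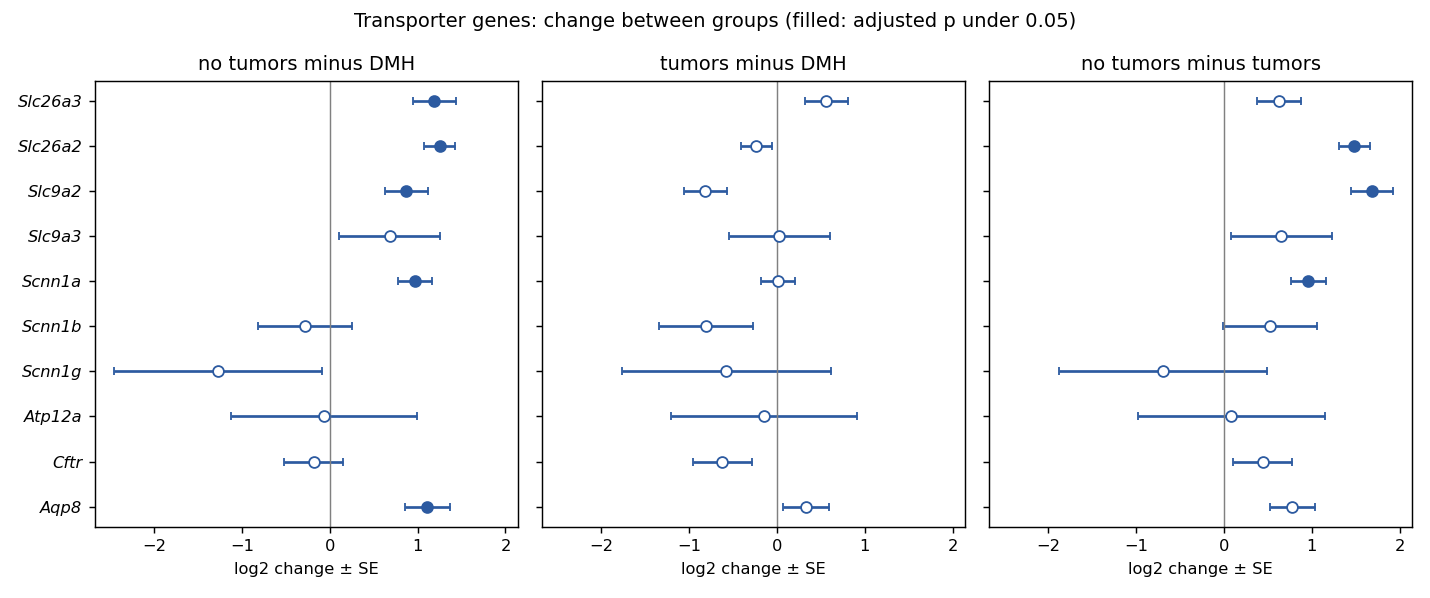
Difference of the 10 genes between groups (log2, x axis) with SE, from the fit to all 9 arrays; filled points have an adjusted p under 0.05. Against DMH, 5 genes are filled in the tumor-free arrays and 0 in the tumor-bearing arrays, and 3 are filled between the butyrate groups; directions are those on values scaled to the 75th percentile.

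The split of all called features into higher and lower moved with the scaling. Higher calls made up 54.6% of those in the tumor-free arrays against DMH, 60.4% in the tumor-bearing arrays against DMH, 48.4% between the butyrate groups and 63.6% over all butyrate arrays. On the deposited value table the shares were 67.1%, 21.2%, 85.6% and 39.2%. With quantile scaling they were 57.9%, 47.5%, 61.2% and 60.4%, and with normexp and quantile scaling 56.4%, 39.1%, 64.1% and 46.8%.

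Some cell type markers differed between the groups beside the transporters. Of all 21964 features, 30.5% were called in the tumor-free arrays against DMH (3657 higher, 3038 lower). In the tumor-bearing arrays against DMH 756 were called higher and 496 lower, and between the butyrate groups 1440 and 1536. No marker list was tested against these shares. In the tumor-free arrays against DMH, 6 of 10 colonic epithelium markers were called lower (median -0.89), while 5 transporters were called higher; their summed level was 513 to 711 in the tumor-free, 610 to 916 in the tumor-bearing and 1233 to 1427 in the DMH arrays. Of 8 surface colonocyte markers 3 were called lower there (Ceacam1, Lypd8 and Krt20), and between the butyrate groups Car1 and Car4 were called higher and Ceacam1 and Lypd8 lower in the tumor-free arrays. Goblet cell markers were called lower than DMH for 4 of 7 in the tumor-free and 5 of 7 in the tumor-bearing arrays, with a summed level of 422 to 565, 191 to 749 and 1286 to 1409 in tumor-free, tumor-bearing and DMH arrays. Smooth muscle markers were called higher than DMH for 3 of 6 in the tumor-free arrays, with summed levels of 380 to 830, 431 to 868 and 219 to 376. Neutrophil markers were called lower than DMH for 4 of 4 in the tumor-free and 1 of 4 in the tumor-bearing arrays, at summed levels of 0.0905 to 0.297, 0.441 to 5.67 and 3.55 to 3.84. Between the butyrate groups S100a8, S100a9 and Mmp9 of the 4 were called lower in the tumor-free arrays (list median -3.12). Only 2 of the 4 were well above background on each tumor-free array, and 3 on tumor-bearing array 1. The sizes of these neutrophil differences therefore rest in part on signal that was not well above background. In the tumor-free arrays against DMH, 2 of 6 enteric neuron and glia markers were called higher, and 1 of 6 crypt base, 2 of 4 squamous and 0 of 4 fat cell markers were called lower. Fat cell markers had summed levels of 9.18 to 46.3 tumor-free, 4.09 to 9.54 tumor-bearing and 18.5 to 20.4 in DMH, and between the butyrate groups 1 of 4, Adipoq, was called higher in the tumor-free arrays (list median 1.75). Colonic epithelium and crypt base markers each had 1 called lower there (Lgals4 and Lef1, list medians -0.29 and -0.30), and the goblet cell, smooth muscle, neuron and glia, squamous and posterior Hox lists had none called. The part of these shifts in the transporter values was not tested.

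The regulators of ENaC and of the aldosterone response, 13 of 14 of which were measured, had 3 called higher and 0 lower in the tumor-free arrays against DMH, where 30.5% of all features were called and 16.6% were called higher. These were Usp2, a deubiquitinase that acts on ENaC (1.32 ± 0.24, adjusted p = 0.00700, limma), Tsc22d3 or GILZ, an aldosterone- and glucocorticoid-induced protein (1.22 ± 0.24, 0.00956), and Nr3c1, the glucocorticoid receptor (1.09 ± 0.27, 0.0188). Nedd4l, the ligase that removes ENaC from the membrane, differed by 0.57 ± 0.22 and did not pass (0.0766). Wnk4, a kinase that regulates chloride cotransport and ENaC, was called lower in the tumor-bearing arrays than in DMH (-1.35 ± 0.32, 0.0471). Usp2 was also called higher in the tumor-free than in the tumor-bearing arrays (1.37 ± 0.24, 0.0167), and Nr3c1 at 0.89 ± 0.27 was not (0.0599). Leaving out 1 array at a time lost the call of Wnk4 in 7 of 9 cases (adjusted p up to 0.154, limma), all but tumor-bearing arrays 1 and 2, that of Nr3c1 against DMH in 4 (any DMH array or tumor-free array 1) and that of Usp2 between the butyrate groups in 1 (tumor-bearing array 3). The median change of the list was 0.27 tumor-free and -0.17 tumor-bearing against DMH, beside 0.08 for all features in each.

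Among 11 scaffolds and regulators of the apical exchangers, Chp2, a calcineurin-like partner of Na+/H+ exchangers, was called lower than DMH in both butyrate groups (tumor-free -1.28 ± 0.22, adjusted p = 0.00574; tumor-bearing -0.98 ± 0.22, 0.0434; limma). Over all butyrate arrays it was -1.13 ± 0.21 (0.0261), the 1 call of the list there. Its relative Chp1 was called higher in the tumor-free arrays (0.94 ± 0.31, 0.0482), as was Pdzd3, a PDZ scaffold (1.21 ± 0.27, 0.0144); without scaling Chp1 differed by -0.14. Gucy2c, the receptor for guanylin that inhibits sodium uptake and drives secretion, was called lower in the tumor-bearing arrays than in DMH (-1.49 ± 0.31, 0.0401) and higher in the tumor-free than in the tumor-bearing arrays (1.36 ± 0.31, 0.0303). Slc9a3r1 (NHERF1), the scaffold of NHE3 and CFTR, was also called higher in that comparison (0.75 ± 0.21, 0.0483), and Slc9a3r2 (NHERF2) at 0.71 ± 0.21 was not (0.0578). Prkg2, the kinase that carries the guanylin signal to CFTR, differed from DMH by -2.23 ± 0.70 in the tumor-bearing arrays and did not pass (0.0832). Leaving out 1 array at a time lost the call of Slc9a3r1 in 8 of 9 cases, that of Gucy2c in 7 against DMH and 5 between the butyrate groups, that of Chp1 in 7, that of Pdzd3 in 2 and that of Chp2 in 6 tumor-bearing, 4 over all butyrate arrays and 0 tumor-free. With quantile scaling Slc9a3r1 was 0.59 and lost its call (0.0958).

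Of 8 measured genes among the other apical exchangers and channels, Clca1, a secreted goblet cell protein that modulates chloride channels, was called lower than DMH in the tumor-free (-1.32 ± 0.40, adjusted p = 0.0394, limma) and tumor-bearing arrays (-1.86 ± 0.40, 0.0413) and over both (-1.59 ± 0.37, 0.0366). Slc26a9, a chloride transporter, was not well above background on any tumor-free array and passed the filter only through the other groups. It was at least 2.24-fold lower there than in DMH. Against the tumor-bearing arrays, 2 of which measured it, it was at least 1.07-fold lower. Its adjusted p of 0.00417 and 0.0360 (limma) belong to log2 differences of -2.91 and -1.84. These differences use tumor-free signal that was not well above background, so the p-values are no test of the bounds. Each bound sets the tumor-free arrays at their detection limit, the dimmest signal that passed as well above background. With quantile scaling the 3 Clca1 calls were lost, at -0.71 tumor-free (adjusted p = 0.248, limma), -1.41 tumor-bearing (0.0946) and -1.06 over both (0.122), and leaving out 1 array at a time lost them in 7, 7 and 6 of 9 cases. The Slc26a9 call between the butyrate groups was lost in 8 of 9 cases and with quantile scaling (0.0872), and that against DMH in 0 of 9. Over 22 alternatives the Slc26a9 difference from DMH ranged from -3.99 to -0.11, and 21 kept the call (adjusted p up to 0.548, limma). Its size therefore depends strongly on the processing. The median change of the list was -0.35 tumor-free and -0.48 tumor-bearing against DMH.

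Of the basolateral list 14 of 14 genes were measured. Among them 5 were called higher and 0 lower in the tumor-free than in the tumor-bearing arrays, where 6.56% of all features were called higher. They were the potassium channel genes Kcne3 (1.20 ± 0.25, adjusted p = 0.0239, limma), Kcnk5 (1.00 ± 0.22, 0.0269) and Kcnq1 (0.85 ± 0.23, 0.0443), the chloride transporter Clcn3 (0.84 ± 0.17, 0.0225) and the potassium-chloride cotransporter Slc12a7 (0.77 ± 0.18, 0.0336). KCNQ1 and KCNE3 form 1 channel that drives chloride secretion. Which membrane of the cell the Clcn3 product lies in was not measured. Slc4a4, a sodium-bicarbonate cotransporter, was 2.22 ± 0.70 higher without passing (0.0670), and it was well above background on 1 tumor-bearing array. Averaged over all probes of the gene, Clcn3 turned to -1.02 in this comparison, so its probes disagree. Leaving out 1 array at a time lost each of the 5 calls in most cases: Kcne3 and Clcn3 in 5 of 9, Kcnk5 in 6, Kcnq1 in 7 and Slc12a7 in 8, with adjusted p up to 0.120 (limma). A fit to the 2 butyrate groups alone called none of them, and with quantile scaling Kcnq1 (0.0925) and Slc12a7 (0.0519) lost their calls. The median change of the list was 0.73, beside -0.01 for all features.

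Against DMH the same list had Clcn3 (1.04 ± 0.17, adjusted p = 0.00513, limma) and Slc12a7 (0.59 ± 0.18, 0.0407) called higher and Kcnn4, a calcium-activated potassium channel, called lower (-1.02 ± 0.23, 0.0153) in the tumor-free arrays; without scaling Clcn3 and Slc12a7 differed by -0.04 and -0.49. Averaged over its probes Clcn3 was -1.81 (0.0450). Leaving out 1 array at a time lost the tumor-free call of Slc12a7 in 7 of 9 cases, that of Kcnn4 in 3 (each DMH array) and that of Clcn3 in 0. Kcnn4 was also called lower over all butyrate arrays (-0.95 ± 0.21, 0.0320), and at -0.89 it did not pass in the tumor-bearing arrays (0.0582), where none of the 14 was called. The median change was 0.41 tumor-free and -0.45 tumor-bearing.

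Of the other aquaporins, 5 of 6 were measured. Aqp4, a basolateral water channel, was called lower in the tumor-bearing arrays than in DMH (-1.50 ± 0.31, adjusted p = 0.0393, limma), and Aqp11, an intracellular aquaporin, was called higher in the tumor-free than in the tumor-bearing arrays (1.72 ± 0.45, 0.0422). Leaving out 1 array at a time lost the call of Aqp4 in 6 of 9 cases and that of Aqp11 in 7, with adjusted p up to 0.141 and 0.136 (limma). Aqp1, the water channel of vessels, was -1.99 ± 0.77 in the tumor-free arrays against DMH and did not pass (0.0810). No other aquaporin was called in the tumor-free arrays against DMH, where Aqp8 was. With slide as a random block, the partner genes that kept a call against DMH were Chp2, Slc26a9 and Clcn3, each in the tumor-free arrays. For Slc26a9 that call too uses tumor-free signal that was not well above background.

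**Figure D4:**
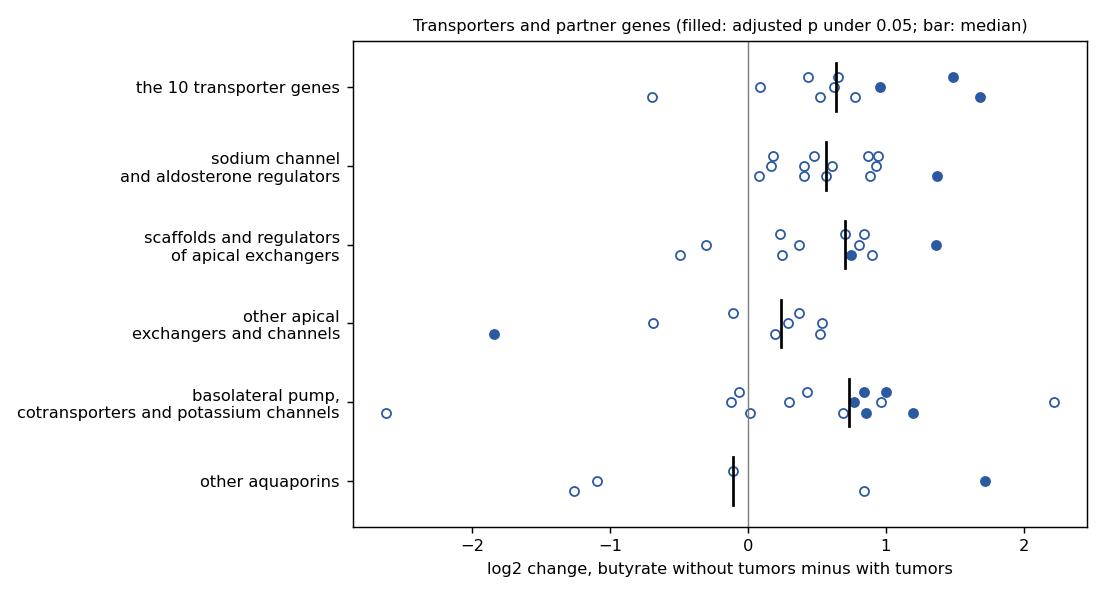
Difference between tumor-free and tumor-bearing butyrate arrays (log2, x axis) for the 10 transporter genes and 5 lists of partner genes; each point is 1 gene, filled where the adjusted p is under 0.05, and the bar is the median of the list. The basolateral list has 5 filled points, all to the right of 0, beside 3 among the 10 transporters; directions are those on values scaled to the 75th percentile.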

How the data were processed

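Each of the 9 scanner files held 41174 probes. Per the file headers, Agilent Feature Extraction 10.5.1.1 made the processed intensity used here by subtracting background within each array, with no scaling between arrays. The authors' deposited value table holds log2 values of 21829 probes, which differed from the log2 of the scanner's processed intensity by 1 constant per array; which quantity that constant is remains unknown, and the table served as an alternative.

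Outlier spots were set to missing, spots of a probe were averaged, and log2 intensities were taken minus the 75th percentile of the array. Probes were kept (28521) where 3 or more arrays showed them well above background and each group had 2 or more values, and the probe with the highest mean stood for a gene. RefSeq accessions named 26933 probes; the DMH files carry another annotation version, with other accessions for 4725 probes. No spot was saturated (0 on every array). Precision is limited by the number of arrays.

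limma 3.58.1 in R 4.3.3 (lmFit and eBayes, moderated, two-sided) was fitted to all features, with 3 groups sharing 1 estimate of the spread, or with 2 groups for all butyrate arrays against DMH. It was tested on simulated data. Groups followed titles. The titles number the replicates 1 to 3 without linking them, and the arrays were not paired. The members and the gene lists were chosen with earlier results of these data known. Some genes of the basolateral list are not reported here, a choice that did not rest on their values. All 10 members are named; of each partner list and comparison, all called genes and at most the next gene by p; and for the 3 members with the widest range the 5 genes with the highest correlation. Alternatives covered scaling, background correction, filters, probe choice, the fit, slides and single arrays. No genome was used, and promoters are RefSeq's, from GRCm38.p6.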

Additional observations from a re-analysis of the deposited data

Results flagged for a closer look

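For 3 genes the difference between the butyrate groups itself passed its test, so that their differences from DMH are not alike in the tumor-free and the tumor-bearing arrays. Slc26a2 was 1.48 higher on the log2 scale in the tumor-free arrays, Slc9a2 was 1.69 higher, and Scnn1a was 0.96 higher (adjusted p = 0.0114, 0.0125 and 0.0236, limma). All 3 tumor-free arrays lay on 1 slide with tumor-bearing array 1, and on that slide the mean differences were 1.50, 2.03 and 0.82. With slide as a fixed block the adjusted p were 0.0596, 0.0551 and 0.196, and with slide as a random block 0.0165, 0.0190 and 0.0435 (limma). A fit to the 2 butyrate groups alone called none of the 3 genes. The second Scnn1a probe ran the other way (-1.03 ± 0.65), and the Scnn1a call was lost in 5 of 9 cases when 1 array was left out. The conflicting tumor status field would turn the sign of all these differences.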

How the results depend on the processing

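Of 946 values of the 10 genes over all alternatives, 829 kept direction and side of the threshold, 31 lost a call, 21 gained one and 65 turned sign; the cause was not tested. Of 1172 values of partner genes, 269 lost a call, 82 gained one and 9 turned sign. Signal over background limits Scnn1b, Scnn1g and Slc9a3, which were not well above background on every array.

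Of all 21964 features, 2841 to 9941 were called tumor-free and 4 to 1792 tumor-bearing against DMH when 1 array was left out. Between the butyrate groups these were 177 to 7774, and over all butyrate arrays 7 to 3626. Leaving out 1 array gave 3 to 5 called genes tumor-free against DMH, 0 to 1 tumor-bearing against DMH, 2 to 4 between the butyrate groups and 0 to 1 over all butyrate arrays. It turned signs for Slc9a2 over all butyrate arrays (-0.23 to 0.27), for Atp12a there (-0.40 to 0.45), tumor-free (-0.77 to 1.35), tumor-bearing (-0.57 to 0.42) and between the groups (-0.62 to 1.49), for Scnn1b (-0.78 to 0.033) and Cftr (-0.49 to 0.13) tumor-free, for Slc9a3 (-0.72 to 0.62), Scnn1a (-0.057 to 0.073) and Scnn1g (-1.13 to 0.32) tumor-bearing, and for Scnn1g between the groups (-2.07 to 0.39).

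With a replicate block 5 tumor-free, 0 tumor-bearing, 3 between the groups and 0 over all butyrate arrays were called, and 6866, 477, 2809 and 583 of all features. Same-numbered arrays had correlations of -0.01 to 0.26, and an array correlated best with its own number in 9 of 18 cases, so numbers were not taken as pairs.

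Without scaling 0 genes were called tumor-free or between the groups, beside 1550 and 1 of all features. The median of all features then moved by -1.08 tumor-free, -0.61 tumor-bearing, -0.47 between the groups and -0.85 over all butyrate arrays. Values that turned there were, over all butyrate arrays, Slc26a2 -0.34, Slc9a2 -0.82, Slc9a3 -0.49, Scnn1a -0.35 and Aqp8 -0.12; tumor-free, Slc9a2 -0.21, Slc9a3 -0.40, Scnn1a -0.11, Nedd4l -0.51, Chp1 -0.14, Clcn3 -0.042, Slc12a7 -0.49 and Slc4a7 -0.60; tumor-bearing, Slc26a3 -0.048, Slc9a3 -0.58, Scnn1a -0.60 and Aqp8 -0.28; between the groups, Atp12a -0.38 and Cftr -0.028. With quantile scaling Slc9a3 was -0.24 tumor-bearing and Atp12a -0.027 between the groups. With normexp Scnn1b was 0.051 tumor-free, Scnn1g 0.15 between the groups, and 1 gene was called tumor-bearing, beside 1188 of all features. On the deposited values, which hold 7 of the 10 genes after the filter, 1 was called tumor-bearing and 5 between the groups. Of all 17085 features there, 1956 were called tumor-bearing and 4382 between the groups, 414 and 3749 of them higher. Atp12a was 0.055 tumor-free and Scnn1a -0.16 tumor-bearing on these values.

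Averaged over probes, Scnn1a was -0.43 over all butyrate arrays, -0.44 tumor-free, -0.41 tumor-bearing and -0.034 between the groups; tumor-free Slc26a6 was 0.16, Clcn3 -1.81 and Slc4a7 -0.92, and between the groups Clcn3 was -1.02. With slide as a random block 1 gene was called tumor-free, Slc9a2 was -0.066 over all butyrate arrays, Scnn1b 0.11 and Atp12a 0.37 tumor-free, Slc9a3 -0.17 tumor-bearing and Scnn1g 0.22 between the groups. With a fixed slide block, or with only the butyrate groups fitted, 0 were called between the groups, beside 357 and 0 of all features. Scnn1g was 1.09 under the block. Without slide 1, 2 genes were called over the butyrate arrays left, beside 2504 of all features. Slc26a2 was then -0.23, Slc9a2 -0.64, Scnn1a -0.057, Scnn1g 0.32 and Atp12a 0.42. With DMH arrays 2 and 3 averaged, 3 were called tumor-free, beside 2907 of all features. Slc9a3 was then -0.058 and Scnn1a -0.017 tumor-bearing. Fitting 3 groups called 3 over all butyrate arrays, and 5052 of all features.

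Without array 1 of both butyrate groups, chosen after seeing the data, 1 gene was called over all butyrate arrays, 2 tumor-bearing and 6 between the groups. Of all features, 1502, 3149 and 7740 were called in the same order. Over all butyrate arrays Scnn1g was 0.071 and Atp12a 0.88; tumor-free, Scnn1b was 0.033, Atp12a 1.35 and Cftr 0.13; tumor-bearing, Scnn1a was -0.057, Scnn1g 0.32 and Atp12a 0.42; between the groups Slc9a3 was -0.033.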
